A study of Mus minutoides with 4 samples.

Results

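The genes described here encode the Eph receptors and ephrins, the semaphorins with their plexin and neuropilin receptors, the Slits with their Robo receptors, and the netrins with their Unc5 receptors. They were found by a rule on gene names among the protein-coding genes of the deposited tables, a rule that used no level but was set with earlier results of these data known, and numbered 67 of 41325 annotated genes, 29437 of which had a TPM above 0 in at least 1 library. TPM is the share of reads per exon length and sums to the same total in every library, so that levels of different genes can be set side by side. Reads were placed on the genome of *M. musculus*. Comparisons between genes, family sums and shares therefore also depend on how well each gene's sequence matches between the species. The study derived iPSCs from the African pygmy mouse *Mus minutoides*, and bulk RNA-seq compared iPSC lines 6 and 10 with primary tail-tip fibroblast lines 1 and 2, with 1 library per line (n = 2 in each group).

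The iPSC lines were made from fibroblasts with doxycycline-inducible PiggyBac vectors for Oct3/4, Klf4, Sox2, c-Myc, Glis1, Nanog and Lin28a, and also carried the vector with the transactivator rtTA, EGFP and a neomycin resistance gene. Each line came from the single cells of 1 colony, was grown on mitomycin C-treated feeder cells from mouse embryos in 2i medium with serum replacement, and was kept free of doxycycline once established. The fibroblasts were grown in DMEM with serum. Between the groups, differences of cell type, of medium and of feeders cannot be told apart. In PCR on iPSC DNA the paper also saw a small amount of *M. musculus* product, which it speculates came from feeder cells. RNA of such cells would match the *M. musculus* genome, so folds between the groups may also depend on the match to that genome. This was not tested. The labels do not say whether the lines derive from different animals, so each p-value reflects only how far these libraries spread, and that spread may be technical. Both iPSC lines had been picked for a *Nanog* level close to that of *M. musculus* ESCs.

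Guidance cues are ligands that attract or repel growing axons and migrating cells, and the same families also act between non-neural cells, for example in blood vessels, epithelia and the early embryo. Ephrins are held on the membrane and bind Eph receptor tyrosine kinases on a neighbouring cell, and the ephrin-bearing cell can itself receive a signal. Class 3 semaphorins, Slits and netrins are secreted, most other semaphorins stay on the membrane, and plexins, neuropilins, Robos and Unc5 proteins receive them and act on the cytoskeleton through small GTPases.

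The exon reads summed to 36694828 and 33858709 in iPSC lines 6 and 10, and to 33546022 and 33084850 in fibroblast lines 1 and 2. The pluripotency markers (10 genes, all higher in iPSCs) summed to 6364 and 7098 TPM in iPSCs and to 1.18 and 1.46 TPM in fibroblasts, as the labels say. The fibroblast markers (12 genes, 9 lower and 0 higher) summed to 6619.7 and 3285 TPM in iPSC lines 6 and 10 and to 23650.3 and 27917 TPM in fibroblasts, so that iPSC line 6 held 25.7% and line 10 held 12.7% of the fibroblast mean. Among them *Dcn* had 374 and 119.5 TPM in iPSCs and 108 and 129.7 TPM in fibroblasts, and *Lum* had 478 and 68.1 TPM in iPSCs and 451 and 541 TPM in fibroblasts. The macrophage and blood markers (10 genes, 9 higher) summed to 269 and 655 TPM in iPSC lines 6 and 10 and to 2.66 and 3.15 TPM in fibroblasts, with *Lyz2*, *Adgre1*, *Tyrobp*, *Aif1* and *C1qa* at 0 in both fibroblast libraries. Of 10 neuron and neural progenitor markers, 9 were tested, 5 were higher and 2 (*Pax6* and *Snap25*) were lower, and they summed to 430.4 and 579 TPM in iPSCs and 82.0 and 88.6 TPM in fibroblasts, with *Tubb3* alone at 318 and 444 TPM in iPSCs. In bulk samples, fewer cells of a type and less RNA per cell cannot be told apart. The 2 iPSC libraries differed more from each other than the fibroblast libraries did (median chi-square per gene 8.53 in iPSCs and 1.73 in fibroblasts, where sampling noise gives 0.455).

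Of the 67 guidance genes, 26 were higher in iPSCs, 19 were lower, 19 were tested and not called, and 3 had too few reads to be tested. A gene was called when the edgeR quasi-likelihood test on exon reads gave a Benjamini-Hochberg adjusted p under 0.05 over all 17777 genes tested and a fold over 2. Among all genes tested 27.1% were higher, 22.3% were lower and 49.4% were called in either direction, beside 40.6%, 29.7% and 70.3% of the 64 guidance genes tested. The median log2 fold change (iPSC over fibroblast) was 0.27 for the guidance genes and 0.08 for all genes. TPM did not overlap between the groups for 58 of 64 guidance genes (33 above and 25 below in iPSCs, 90.6%), beside 86.5% of all genes. A lack of overlap named below therefore sets no gene apart from most others. Summed over the 67 genes, the level was 1537 and 1554 TPM in iPSCs and 1589 and 1773 TPM in fibroblasts (ratio 0.919). In what follows, TPM values are those of lines 6 and 10 for iPSCs and of lines 1 and 2 for fibroblasts, and a log2 fold change is given with its standard error and the adjusted p of that edgeR fit. Every count of calls by family stands beside the shares of all genes tested (27.1% higher, 22.3% lower). The families are small, and none was tested as a set.

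**Figure D1:**
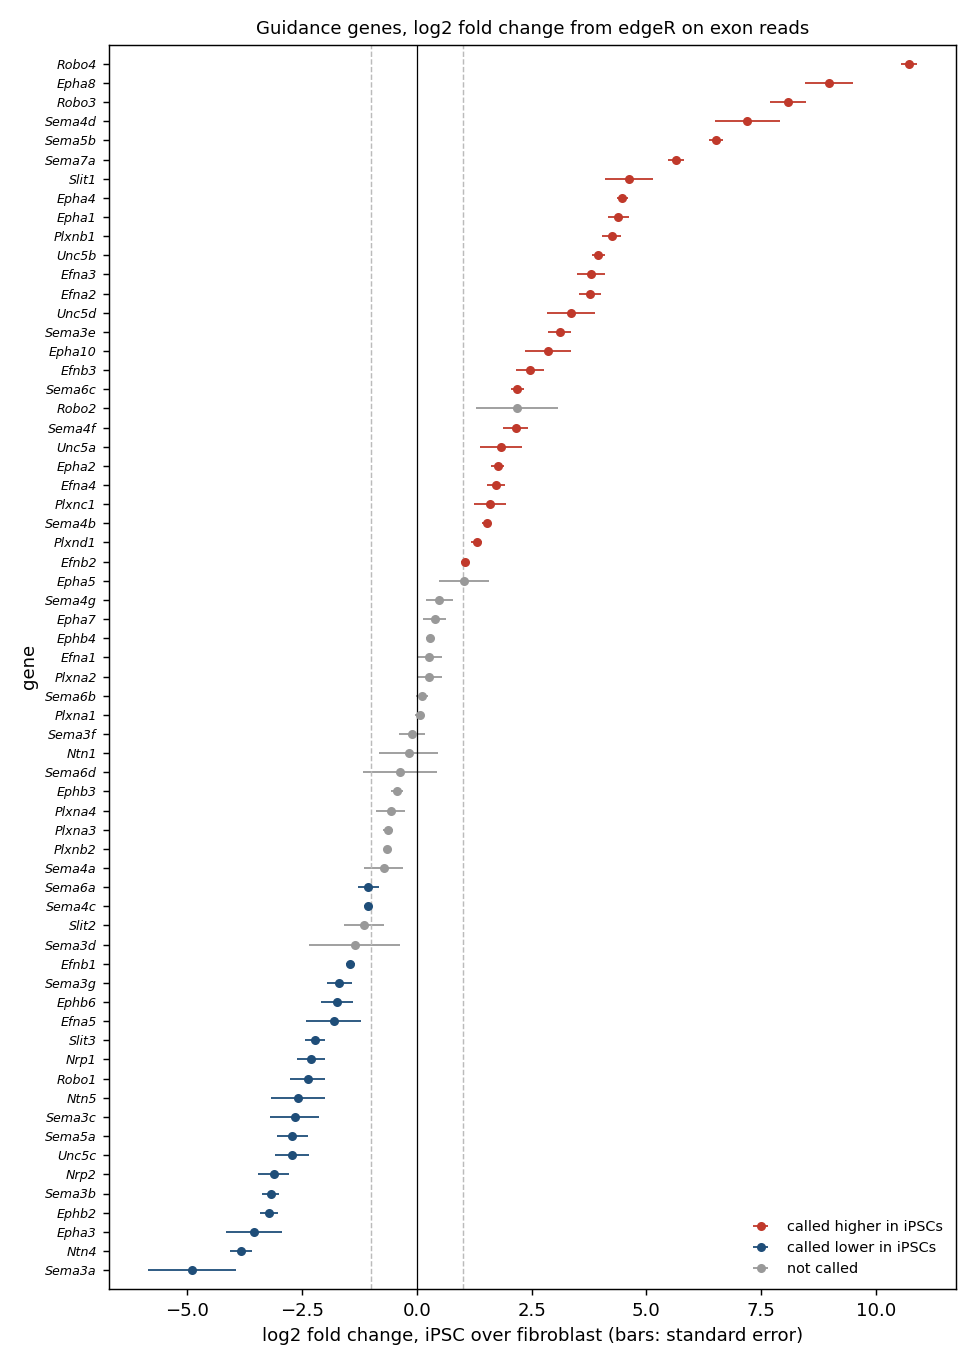
Log2 fold change (iPSC over fibroblast, edgeR on exon reads) on the x axis for each of the 64 guidance genes tested, with bars for 1 standard error and dashed lines at a fold of 2. The 26 genes called higher, the 19 called lower and the 19 not called are drawn in separate colours. *Robo4* and *Epha8* had no exon read in fibroblasts, so where their points lie depends on the prior count, as it does for *Slit1*, *Unc5d* and *Ntn5* with up to 2 reads in a group.

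The ligands were also grouped by how they are presented, a grouping chosen after the values were seen, and the difference between the secreted and the membrane-bound cues was not tested. Of all genes tested, 27.1% were higher and 22.3% lower. Of 13 secreted ligands (class 3 semaphorins, Slits and netrins) 2 were higher, 7 lower and 4 not called, and their summed level was 202 and 129 TPM in iPSCs, against 649 and 722 TPM in fibroblasts (ratio 0.241). Of 21 membrane-bound ligands (ephrins and the semaphorins of classes 4 to 7) 11 were higher, 5 lower and 5 not called, and they summed to 541 and 595 TPM in iPSCs, against 231 and 259 TPM in fibroblasts (ratio 2.32). Of the 33 receptors 13 were higher, 7 lower, 10 not called and 3 not tested.

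EphA receptors, which mostly bind the lipid-anchored ephrin-A ligands, were higher in iPSCs for 5 of 9 genes and lower for 1, and summed to 206 and 239.6 TPM in iPSCs and 68.6 and 82.6 TPM in fibroblasts. *Epha2*, a receptor known from epithelia and tumours, led the iPSCs with 88.9 and 114 TPM, against 24.4 and 30.1 TPM in fibroblasts (log2 fold change 1.77 ± 0.14, adjusted p = 0.00074). *Epha4*, which binds ephrins of both classes and guides motor and corticospinal axons, had 71.5 and 69.8 TPM in iPSCs and 2.52 and 3.26 TPM in fibroblasts (4.48 ± 0.11, adjusted p = 0.00014). *Epha1* had 16.5 and 21.0 TPM in iPSCs and 0.657 and 0.89 TPM in fibroblasts (4.39 ± 0.23, adjusted p = 0.00031). Both iPSC lines lay above both fibroblast lines for each of these receptors. Of all genes tested, 86.5% did not overlap between the groups in either direction. *Epha1* overlaps *Zyx*, which is at up to 131 TPM in these libraries, and whether reads were assigned by strand is not stated.

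*Epha8* had 889 and 1379 exon reads in iPSCs and 0 in both fibroblast libraries, 17.3 and 28.8 TPM against 0. Set against a floor of 3 reads over the fibroblast group, this is at least 586-fold higher (adjusted p = 0.00092), and like all such floors it covers counting error only. *Epha10*, an Eph receptor without kinase activity, was called higher at a low level (0.483 and 0.753 TPM in iPSCs, 0.0298 and 0.0809 TPM in fibroblasts, 2.86 ± 0.50, adjusted p = 0.0068). *Epha3*, a receptor of ephrin-A5, went the other way with 5.85 and 1.74 TPM in iPSCs, against 37.7 and 45.0 TPM in fibroblasts (-3.55 ± 0.61, adjusted p = 0.0066). Thus *Epha3* was the most abundant EphA transcript of fibroblasts, with 54.4% to 55.0% of the family sum, and *Epha2* that of iPSCs, with 43.2% to 47.4%. *Epha7* and *Epha5* were tested and not called (0.39, adjusted p = 0.214, and 1.04, adjusted p = 0.152), and *Epha6* had between 2 and 9 reads per library and was not tested.

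No EphB receptor was called higher. These receptors bind the transmembrane ephrin-B ligands and sort cells at tissue borders, and they summed to 106 and 102 TPM in iPSCs and 152 and 170.3 TPM in fibroblasts. *Ephb2*, the most abundant EphB transcript of fibroblasts, had 8.29 and 5.97 TPM in iPSCs, against 57.0 and 64.3 TPM in fibroblasts (-3.21 ± 0.19, adjusted p = 0.00041). *Ephb6*, which lacks kinase activity, had 6.98 and 3.61 TPM in iPSCs and 15.8 and 17.0 TPM in fibroblasts (-1.74 ± 0.35, adjusted p = 0.011). Its call held in 15 of 18 alternative analyses and was lost, among others, without fibroblast line 1 (-1.75) or line 2 (-1.78). *Ephb2* and *Ephb6* were below both fibroblast values in each iPSC line. *Ephb4*, the partner of ephrin-B2 between veins and arteries, had 56.8 and 64.7 TPM in iPSCs and 42.1 and 48.3 TPM in fibroblasts (0.30 ± 0.09, adjusted p = 0.035), and *Ephb3* had 34.2 and 28.0 TPM in iPSCs and 36.6 and 40.5 TPM in fibroblasts (-0.44 ± 0.13, adjusted p = 0.033). Neither reached a fold of 2. *Ephb1* had 13 and 0 reads in iPSCs and 9 in each fibroblast library and was not tested.

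Among the ephrin-A ligands 3 of 5 were higher in iPSCs and 1 was lower, and the family summed to 167 and 194 TPM in iPSCs and 44.8 and 51.6 TPM in fibroblasts. *Efna2* had 99.2 and 128 TPM in iPSCs and 5.85 and 9.24 TPM in fibroblasts (3.78 ± 0.24, adjusted p = 0.00043). *Efna4* had 35.9 and 47.2 TPM in iPSCs and 10.6 and 12.2 TPM in fibroblasts (1.73 ± 0.19, adjusted p = 0.0016). *Efna3* had 14.2 and 10.3 TPM in iPSCs and 0.707 and 0.766 TPM in fibroblasts (3.79 ± 0.31, adjusted p = 0.00078). All 3 ligands were higher in each iPSC line than in either fibroblast line. *Efna5*, a repellent of retinal axons in the mapping of eye to brain, had 11.7 and 3.40 TPM in iPSCs, against 23.6 and 25.4 TPM in fibroblasts (-1.81 ± 0.60, adjusted p = 0.048). Its 2 iPSC values lay far apart, and the call was lost in 10 of 18 alternative analyses, among them those without fibroblast line 1 or line 2 (adjusted p = 0.13 and 0.126). *Efna1* was not called, with 5.75 and 4.90 TPM in iPSCs and 4.05 and 3.95 TPM in fibroblasts (0.28 ± 0.28, adjusted p = 0.42). *Efna1*, *Efna3* and *Efna4* are neighbours on the minus strand of chromosome 3 (gaps of 32757 and 10425 bases), and of these only *Efna3* and *Efna4* were called. The largest share of the family sum was that of *Efna2* in iPSCs (59.5% to 66.1%) and that of *Efna5* in fibroblasts (49.2% to 52.7%).

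The ephrin-B ligands split within a family of 3. *Efnb2*, which marks arteries and binds *Ephb4*, had 85.4 and 85.1 TPM in iPSCs and 35.5 and 40.4 TPM in fibroblasts (1.04 ± 0.07, adjusted p = 0.00049). This fold lay just over the threshold and fell under it on reads of the whole gene, introns included (0.90), and without fibroblast line 1 (0.99). *Efnb1*, the X-linked member, had 20.8 and 18.7 TPM in iPSCs and 46.6 and 51.9 TPM in fibroblasts (-1.44 ± 0.10, adjusted p = 0.00056). *Efnb3*, a midline barrier to corticospinal axons, was called higher at 3.88 and 4.43 TPM in iPSCs and 0.675 and 0.586 TPM in fibroblasts (2.47 ± 0.31, adjusted p = 0.0025). None of the 3 genes overlapped between the groups, and the leading ligand was *Efnb2* in iPSCs (77.6% to 78.6% of the family sum) and *Efnb1* in fibroblasts (55.9% to 56.3%).

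**Figure D2:**
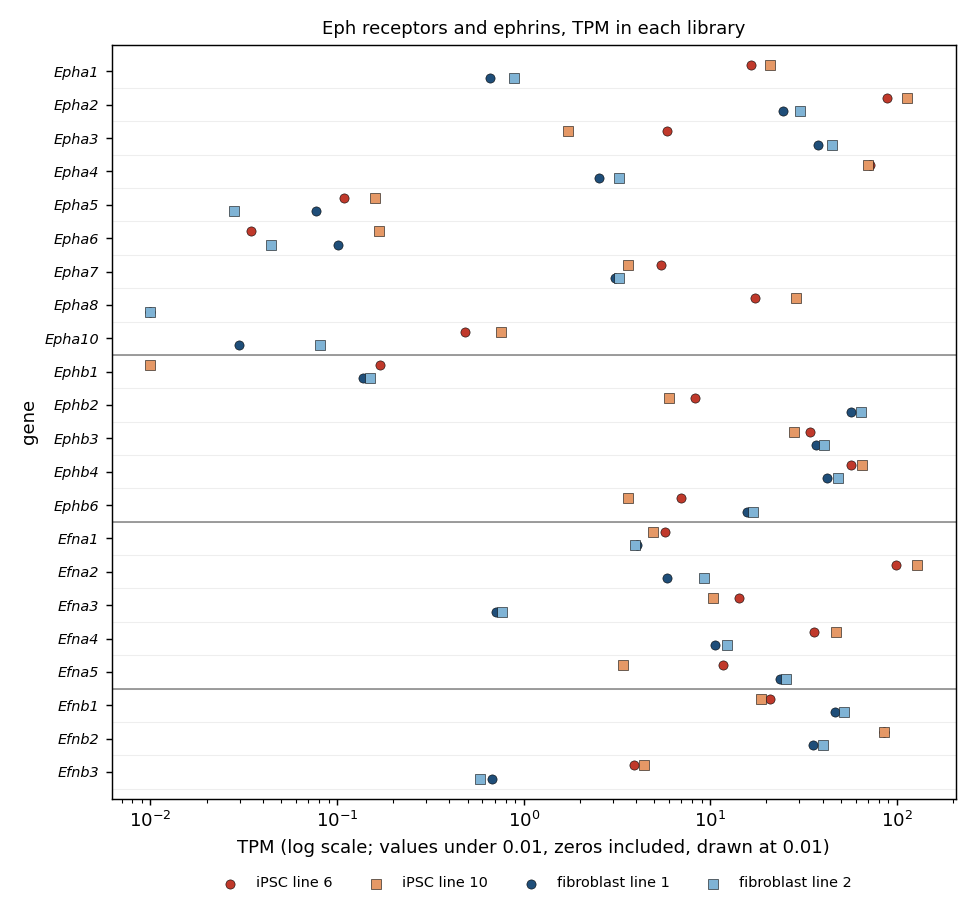
TPM on a log x axis for every Eph receptor and ephrin in each of the 4 libraries, with values under 0.01 drawn at 0.01 and overlapping points able to hide each other. *Epha2*, *Epha4*, *Efna2* and *Efnb2* lie further right in iPSCs than in fibroblasts, and *Ephb2*, *Efnb1* and *Epha3* lie further right in fibroblasts.

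The class 3 semaphorins are secreted repellents and attractants that mostly signal through a neuropilin joined to a plexin. Of 7 members 4 were lower in iPSCs and 1 was higher, and they summed to 97.4 and 66.6 TPM in iPSCs and 311 and 350.1 TPM in fibroblasts (ratio 0.248). *Sema3a*, which collapses growth cones through neuropilin-1, had 3.71 and 0.533 TPM in iPSCs and 55.9 and 62.0 TPM in fibroblasts (-4.90 ± 0.96, adjusted p = 0.0098). *Sema3c*, a ligand in the forming cardiac outflow tract, had 42.3 and 15.0 TPM in iPSCs and 155 and 179 TPM in fibroblasts (-2.66 ± 0.53, adjusted p = 0.011). *Sema3b* had 7.41 and 10.6 TPM in iPSCs and 72.5 and 76.8 TPM in fibroblasts (-3.18 ± 0.19, adjusted p = 0.00038). Every iPSC value of these 3 ligands lay below both fibroblast values, and *Sema3a* and *Sema3c* were each higher in line 6 than in line 10. *Sema3g*, known from arterial endothelium, was lower as well (1.55 and 2.32 TPM in iPSCs, 5.33 and 6.29 TPM in fibroblasts, -1.69 ± 0.27, adjusted p = 0.0054).

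*Sema3e* was the exception, with 15.7 and 24.2 TPM in iPSCs and 2.11 and 2.06 TPM in fibroblasts (3.11 ± 0.25, adjusted p = 0.00072). It binds plexin-D1 without a neuropilin, and lies 422711 bases from *Sema3a* on chromosome 5. *Sema3f*, a neuropilin-2 ligand, had 23.6 and 13.7 TPM in iPSCs and 16.5 and 20.3 TPM in fibroblasts, and the groups overlapped (-0.10 ± 0.29, adjusted p = 0.77). *Sema3d* had 3.10 and 0.31 TPM in iPSCs and 4.33 and 3.76 TPM in fibroblasts (-1.35 ± 0.99, adjusted p = 0.28). Its log2 fold change was -3.76 without iPSC line 6, the line with the higher value, and -0.51 without iPSC line 10.

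Both neuropilins, the co-receptors of class 3 semaphorins and of VEGF, were lower in iPSCs. *Nrp2* had 22.3 and 12.1 TPM in iPSCs and 129.6 and 143 TPM in fibroblasts (-3.11 ± 0.34, adjusted p = 0.0017). *Nrp1* had 12.1 and 6.80 TPM in iPSCs and 41.3 and 44.8 TPM in fibroblasts (-2.31 ± 0.30, adjusted p = 0.0029). Together they summed to 34.5 and 18.9 TPM in iPSCs and 171 and 188 TPM in fibroblasts (ratio 0.148).

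The class 4 semaphorins, transmembrane proteins that mostly bind plexin-B receptors, were higher in iPSCs for 3 of 6 genes and lower for 1. *Sema4d*, the ligand of plexin-B1 that is also known from T cells, had 14.7 and 26.5 TPM in iPSCs and 0.182 and 0.0152 TPM in fibroblasts (7.20 ± 0.71, adjusted p = 0.0013). The macrophage and blood markers given above were also higher in iPSCs and higher in line 10 than in line 6, and their part in the *Sema4d* difference was not tested. On reads of the whole gene, where introns held 80.0% of the fibroblast reads, the log2 fold change of *Sema4d* was 5.20. *Sema4b* had 52.2 and 52.8 TPM in iPSCs and 14.7 and 18.8 TPM in fibroblasts (1.52 ± 0.10, adjusted p = 0.00048). *Sema4f* was called higher at 3.84 and 5.13 TPM in iPSCs and 0.914 and 0.859 TPM in fibroblasts (2.16 ± 0.28, adjusted p = 0.0027). *Sema4c*, a plexin-B2 ligand, had 16.0 and 17.2 TPM in iPSCs and 29.8 and 33.5 TPM in fibroblasts (-1.06 ± 0.09, adjusted p = 0.0008). Its groups did not overlap, but the fold was close to 2 and the call was lost in 8 of 18 alternatives, all of them changes of normalization, filter, threshold or test.

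*Sema4g* was not called, with 6.39 and 4.11 TPM in iPSCs and 3.24 and 3.57 TPM in fibroblasts (0.50 ± 0.29, adjusted p = 0.18). *Sema4a* was not called either (1.02 and 2.19 TPM in iPSCs, 2.21 and 2.65 TPM in fibroblasts, -0.72, adjusted p = 0.191). Its log2 fold change was -1.34 without iPSC line 10 and -0.30 without iPSC line 6. Within the class the leading member was *Sema4b* in iPSCs (48.9% to 55.5%) and *Sema4c* in fibroblasts (56.5% to 58.4%).

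Among the semaphorins of classes 5 to 7, 3 of 7 were higher and 2 lower. *Sema7a*, held on the membrane by a lipid anchor and bound by integrins and plexin-C1, had 79.8 and 90.9 TPM in iPSCs and 1.63 and 1.34 TPM in fibroblasts (5.65 ± 0.17, adjusted p = 0.00016). *Sema6c* had 36.9 and 44.3 TPM in iPSCs and 8.26 and 7.86 TPM in fibroblasts (2.19 ± 0.14, adjusted p = 0.00042). *Sema5b*, a transmembrane semaphorin with thrombospondin repeats, had 24.1 and 23.9 TPM in iPSCs and 0.182 and 0.247 TPM in fibroblasts (6.51 ± 0.15, adjusted p = 0.00013, and 5.35 on reads of the whole gene). These 3 genes made up most of the family sum of 170.2 and 185 TPM in iPSCs, against 52.0 and 55.5 TPM in fibroblasts.

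*Sema5a*, the other thrombospondin-repeat semaphorin, moved in the direction opposite to *Sema5b*, with 3.61 and 1.88 TPM in iPSCs and 16.2 and 16.8 TPM in fibroblasts (-2.71 ± 0.34, adjusted p = 0.0026). *Sema6a*, a ligand of plexins A2 and A4, was called lower with 6.63 and 4.44 TPM in iPSCs and 10.2 and 10.9 TPM in fibroblasts (-1.05 ± 0.23, adjusted p = 0.013). That call was lost in 11 of 18 alternatives, including those without fibroblast line 1 (adjusted p = 0.0696), without fibroblast line 2 (adjusted p = 0.0625) and without iPSC line 10 (-0.79). *Sema6b* had 16.1 and 19.0 TPM in iPSCs and 13.3 and 16.3 TPM in fibroblasts (0.12 ± 0.14, adjusted p = 0.47), and *Sema6d* had 3.02 and 0.523 TPM in iPSCs and 2.19 and 2.02 TPM in fibroblasts (-0.36 ± 0.81, adjusted p = 0.71). Both overlapped between the groups, and the log2 fold change of *Sema6d* was -2.12 without iPSC line 6 and 0.39 without iPSC line 10.

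The plexins are the signalling receptors of the semaphorins. They summed to 272 and 269 TPM in iPSCs and 281 and 307 TPM in fibroblasts (ratio 0.921), and 3 of 9 were called, all higher. *Plxnb1*, the receptor of *Sema4d*, had 14.5 and 19.4 TPM in iPSCs and 0.684 and 0.924 TPM in fibroblasts (4.24 ± 0.21, adjusted p = 0.00029). *Plxnd1*, the receptor of *Sema3e*, had 15.5 and 14.4 TPM in iPSCs and 5.45 and 5.57 TPM in fibroblasts (1.30 ± 0.12, adjusted p = 0.00099). *Plxnc1*, the receptor of *Sema7a*, was called higher at a low level (1.19 and 1.55 TPM in iPSCs, 0.451 and 0.335 TPM in fibroblasts, 1.60 ± 0.35, adjusted p = 0.014). Its call held in 14 of 18 alternatives and was lost, among others, without fibroblast line 2 (1.34). For each plexin called higher, the ligand named here was also higher in iPSCs, a pairing looked up after the values were seen. Other ligands of these plexins were not weighed. Of all 34 ligands 13 were higher, 12 lower and 9 not called.

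*Plxnb2* had 129.8 and 134 TPM in iPSCs and 180.2 and 199 TPM in fibroblasts (-0.65 ± 0.06, adjusted p = 0.0013), and *Plxna3* had 8.56 and 9.96 TPM in iPSCs and 12.3 and 14.0 TPM in fibroblasts (-0.63 ± 0.11, adjusted p = 0.0071). Their groups did not overlap, and only the fold kept them from being called. *Plxna1*, which pairs with neuropilin-1, had 98.0 and 86.6 TPM in iPSCs and 77.9 and 83.4 TPM in fibroblasts (0.07 ± 0.10, adjusted p = 0.57). *Plxna2* and *Plxna4*, at 1.10 to 3.14 TPM in iPSCs and 1.62 to 2.13 TPM in fibroblasts, overlapped and were not called. *Plxnb3* had 10 and 19 reads in iPSCs and 0 and 2 in fibroblasts, too few to be tested, with a ratio of 11.2 (95% counting interval 2.84 to 97.2). On reads of the whole gene *Plxnb3* was tested and called higher (log2 fold change 1.43, adjusted p = 0.036).

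**Figure D3:**
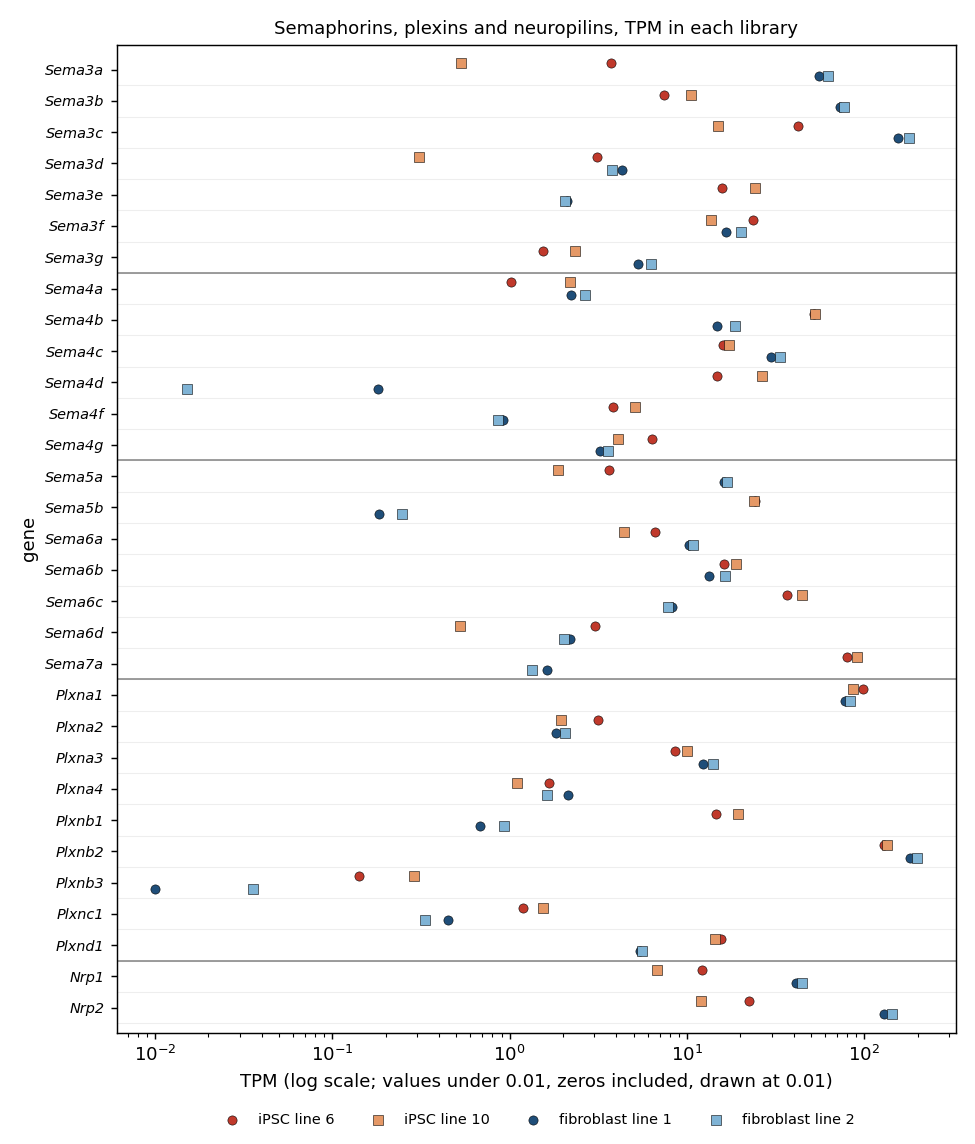
TPM on a log x axis for every semaphorin, plexin and neuropilin in each of the 4 libraries, with values under 0.01 drawn at 0.01. *Sema7a*, *Sema5b*, *Sema4d* and *Plxnb1* are high in iPSCs, *Sema3a*, *Sema3b*, *Sema3c*, *Nrp1* and *Nrp2* in fibroblasts, and *Plxnb2* and *Plxna1* are high in both.

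Slits are secreted repellents that bind Robo receptors. *Slit3* was the most abundant of the 67 genes in fibroblasts, and had 70.1 and 47.9 TPM in iPSCs, against 239.9 and 261 TPM in fibroblasts (-2.21 ± 0.21, adjusted p = 0.0012). *Slit2*, the repellent of midline and retinal axons, had 11.2 and 4.65 TPM in iPSCs and 14.5 and 17.8 TPM in fibroblasts (-1.14 ± 0.44, adjusted p = 0.072). It was not called, but was lower by DESeq2. Its log2 fold change was -1.94 without iPSC line 6 and -0.65 without iPSC line 10. *Slit1* had 73 and 66 exon reads in iPSCs and 1 and 0 in fibroblasts, a ratio of 107.8 (95% counting interval 19.0 to 4287, adjusted p = 0.0019), at only 1.13 and 1.10 TPM in iPSCs. On reads of the whole gene, where introns gave 98.7% of the fibroblast reads, *Slit1* was not called (0.99).

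The Robo receptors were called in both directions. *Robo1*, the common Slit receptor, made up 99.1% to 99.4% of the Robo sum in fibroblasts and was lower in iPSCs (8.82 and 4.23 TPM in iPSCs, 28.8 and 33.3 TPM in fibroblasts, -2.37 ± 0.38, adjusted p = 0.0054). *Robo4*, known from vascular endothelium, had 4047 and 3563 exon reads in iPSCs and 0 in both fibroblast libraries. This gave 69.8 and 66.3 TPM in iPSCs, against 0 in fibroblasts, and is at least 1967-fold higher against the floor of 3 reads (adjusted p = 0.00016). *Robo3*, which lets commissural axons cross the midline, had 32.7 and 52.5 TPM in iPSCs and 0.0785 and 0.153 TPM in fibroblasts (8.09 ± 0.39, adjusted p = 0.00029). The Robo sum was therefore 113 and 123 TPM in iPSCs and 29.0 and 33.6 TPM in fibroblasts, with *Robo4* (53.8% to 62.1%) leading in iPSCs. *Robo2* was not called, at 1.13 and 0.197 TPM in iPSCs and 0.101 and 0.151 TPM in fibroblasts (2.19 ± 0.90, adjusted p = 0.086). It was called higher by DESeq2, and its log2 fold change was 2.93 without iPSC line 10 and 0.46 without iPSC line 6.

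*Robo4* and *Robo3* are neighbours on chromosome 9 of GRCm38, with *Robo4* on the plus strand from 37401897 to 37415115 and *Robo3* on the minus strand from 37415669 to 37433246. Their 3' ends face each other, 554 bases apart. The endothelial markers (10 genes, 9 tested, 5 higher and 1 lower) summed to 46.2 and 41.7 TPM in iPSCs and 36.8 and 39.0 TPM in fibroblasts. Among the 5 called higher, *Tek* had 20.9 and 13.7 TPM in iPSCs and 0.662 and 1.09 TPM in fibroblasts, *Esam* had 6.48 and 5.88 TPM in iPSCs and 0.225 and 0.163 TPM in fibroblasts, and *Cldn5* had 1.62 and 2.65 TPM in iPSCs and 0 in fibroblasts. *Cdh5* had 0.348 and 0.352 TPM in iPSCs, against 0.0512 and 0 TPM in fibroblasts. *Kdr* had 0.547 and 0.371 TPM in iPSCs, against 0.0357 and 0.0258 TPM in fibroblasts. *Flt1* was lower (5.39 and 3.45 TPM in iPSCs, 27.6 and 28.2 TPM in fibroblasts). *Egfl7* had 9.91 and 13.9 TPM in iPSCs and 7.53 and 8.95 TPM in fibroblasts and was not called, nor were *Tie1* and *Vwf*, which were below 1 TPM in every library, and *Emcn* (0.101 and 0.182 TPM in iPSCs, 0 in fibroblasts) was not tested. The part of endothelial cells in the *Robo4* difference was not tested.

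Netrins are laminin-related cues that bind DCC, neogenin and Unc5 receptors. *Ntn4*, a netrin of basement membranes, had 7.19 and 4.64 TPM in iPSCs and 73.4 and 82.1 TPM in fibroblasts (-3.83 ± 0.25, adjusted p = 0.00045), and gave 88.3% of the netrin sum in each fibroblast library. Its intron reads did not follow its exon reads. Exon reads numbered 294 and 176 in iPSCs and 2556 and 2636 in fibroblasts, while intron reads numbered 1341 and 1472 in iPSCs and 1012 and 1017 in fibroblasts. Introns thus held 85.7% of the *Ntn4* reads in iPSCs and 28.1% in fibroblasts, and on all reads of the gene the log2 fold change was -1.62. *Ntn4* lies on the plus strand of chromosome 10 from 93640681 to 93747207, and its most abundant overlapping gene in the annotation was at 0.665 TPM.

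*Ntn1*, the founding netrin, had 14.7 and 3.77 TPM in iPSCs and 9.16 and 10.05 TPM in fibroblasts (-0.18 ± 0.65, adjusted p = 0.82). The 2 iPSC lines lay on either side of the fibroblasts, so that the log2 fold change of *Ntn1* was -1.49 without line 6 and 0.49 without line 10. *Ntn5* had 0 and 2 reads in iPSCs and 12 and 15 in fibroblasts, 17.4 times as many in fibroblasts after scaling (95% counting interval 4.38 to 151, adjusted p = 0.015), and lost its call without fibroblast line 1 (adjusted p = 0.0779).

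Of the Unc5 receptors, which turn the response to netrin-1 from attraction to repulsion, 3 of 4 were higher in iPSCs. *Unc5b*, also known from vessels, had 59.6 and 74.8 TPM in iPSCs and 3.71 and 4.17 TPM in fibroblasts (3.95 ± 0.14, adjusted p = 0.00018), and made up 96.0% to 97.4% of the Unc5 sum in iPSCs. *Unc5c* led in fibroblasts and was lower in iPSCs (1.03 and 0.515 TPM in iPSCs, 4.20 and 5.25 TPM in fibroblasts, -2.71 ± 0.37, adjusted p = 0.0032). *Unc5a* was called higher at 1.14 and 1.21 TPM in iPSCs and 0.155 and 0.392 TPM in fibroblasts (1.83 ± 0.45, adjusted p = 0.021). Its call held in 13 of 17 alternatives and was lost, among others, without fibroblast line 1 (1.39). For *Unc5d* there were 31 and 24 reads in iPSCs and 1 and 0 in fibroblasts, a ratio of 42.7 (95% counting interval 7.34 to 1715, adjusted p = 0.0049). It was not called on reads of the whole gene (0.86). The Unc5 sum was 62.0 and 76.8 TPM in iPSCs, against 8.08 and 9.81 TPM in fibroblasts (ratio 7.76).

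**Figure D4:**
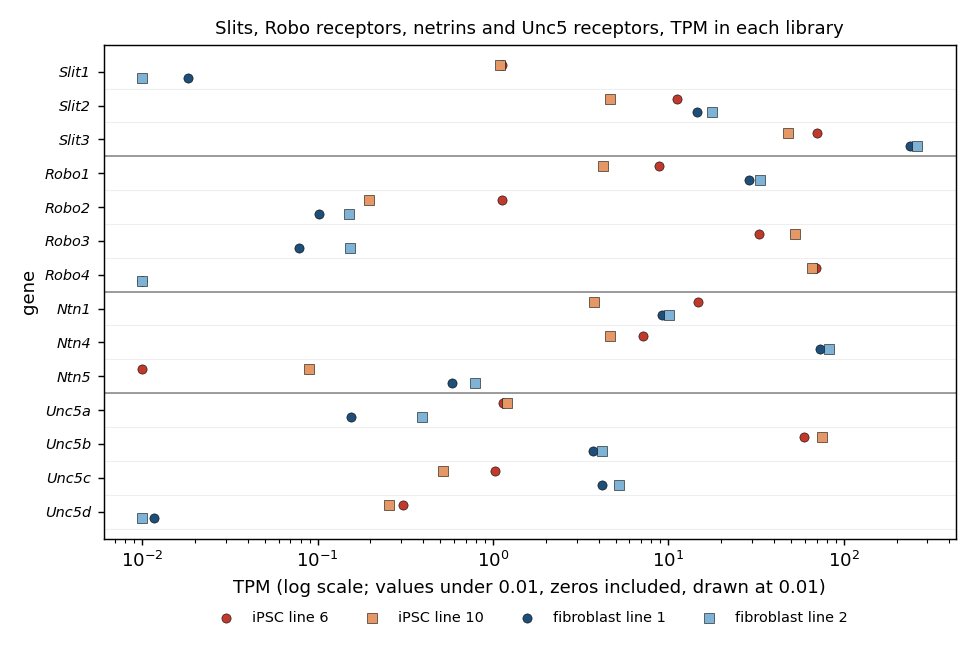
TPM on a log x axis for every Slit, Robo, netrin and Unc5 gene in each of the 4 libraries, with values under 0.01 drawn at 0.01. *Robo4* and *Robo3* were above 32 TPM in both iPSC lines and at or near 0 in fibroblasts (the 2 fibroblast points of *Robo4* coincide), and *Slit3*, *Ntn4* and *Robo1* lie higher in fibroblasts.

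Genes called lower in iPSCs mostly had more TPM in line 6 than in line 10, among all genes as among the guidance genes. Of the 19 guidance genes called lower 15 had more TPM in line 6 (78.9%, median ratio of line 6 to line 10 1.78). For all 3962 genes called lower the share was 68.1% and the median ratio 1.16. As a share of the fibroblast mean, the 19 genes had a median of 25.4% in line 6 and 13.6% in line 10, and reached 62.8% and 54.3% at most. Among all 3962 genes called lower those medians were 32.6% in line 6 and 27.5% in line 10. The summed fibroblast markers stood at 25.7% in line 6 and 12.7% in line 10. *Col1a1* was the largest part of that sum in every library, and 3 of the markers (*Dcn*, *Lum* and *Fap*) were not called. How far fibroblast-type RNA in the iPSC libraries makes up these remainders was not tested. Of the 26 genes called higher 8 had more TPM in line 6 (30.8%), beside 29.3% of all genes called higher. Of the 19 not called 13 had more TPM in line 6 (68.4%), beside 41.5% of all genes not called.

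**Figure D5:**
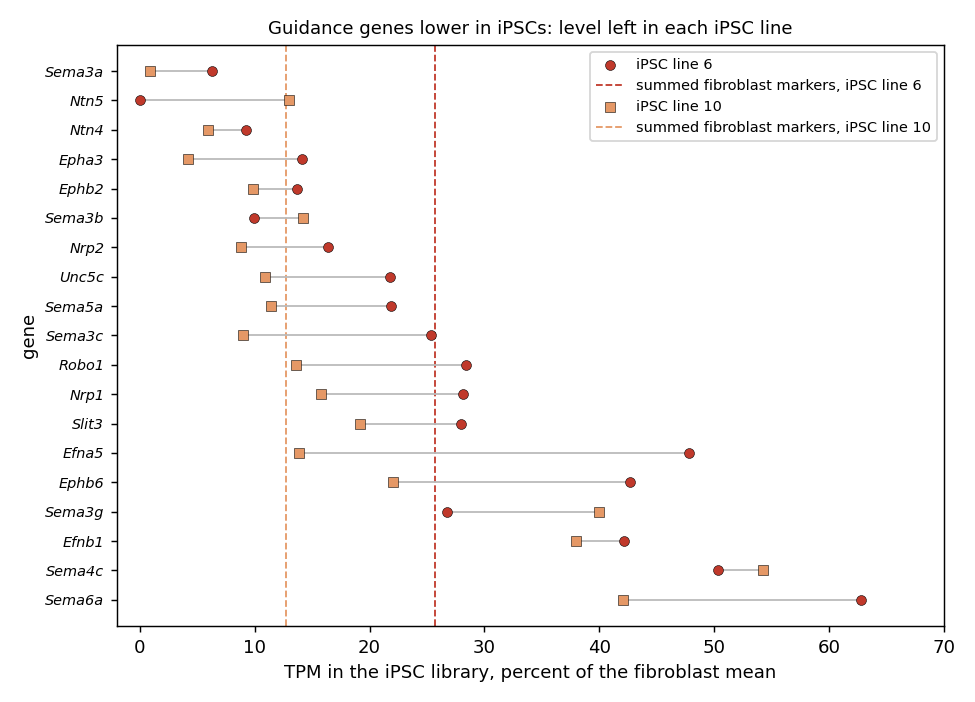
Level of each of the 19 guidance genes called lower, as a percent of the fibroblast mean TPM, in iPSC line 6 and in iPSC line 10, with dashed lines at the summed fibroblast markers (25.7% in line 6, 12.7% in line 10). In 15 of the 19 genes (78.9%, beside 68.1% of all genes called lower) the point of line 6 lies to the right of that of line 10. The medians of all genes called lower, 32.6% in line 6 and 27.5% in line 10, are not drawn.

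Other genes act beside these ligands and receptors. Of 20 co-receptors and other cues, 17 were tested, 4 were higher and 9 lower (beside 27.1% higher and 22.3% lower of all genes tested), with a median log2 fold change of -1.05 (0.08 for all genes). *L1cam*, an adhesion molecule that joins neuropilin-1 in the response to *Sema3a*, had 0.785 and 1.27 TPM in iPSCs and 88.4 and 97.3 TPM in fibroblasts (-6.59 ± 0.25, adjusted p = 0.0002). *Neo1*, the neogenin receptor of netrins and RGM proteins, had 21.6 and 15.1 TPM in iPSCs and 83.3 and 94.4 TPM in fibroblasts (-2.40 ± 0.20, adjusted p = 0.00084). *Adam10*, a protease that cuts ephrins from the cell surface, had 48.1 and 36.7 TPM in iPSCs and 159 and 177 TPM in fibroblasts (-2.11 ± 0.16, adjusted p = 0.00066). These 3 partners were lower in each iPSC line than in either fibroblast line. *Rgmb*, a neogenin ligand, was also lower (-1.67 ± 0.31, adjusted p = 0.0081). *Vangl2*, a planar polarity protein, was the one such partner above 5 TPM that was higher (48.6 and 63.6 TPM in iPSCs, 4.31 and 4.32 TPM in fibroblasts, 3.56 ± 0.16, adjusted p = 0.00026). *Rgma* had 71.8 and 67.7 TPM in iPSCs and 87.9 and 99.98 TPM in fibroblasts and was not called (-0.56 ± 0.08, adjusted p = 0.0036), nor was *Lrig2* (-0.33, adjusted p = 0.23). *Dcc*, *Dscam* and *Ntng1* were not tested for want of reads.

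Of 60 intracellular effectors of guidance receptors 7 were higher and 22 lower, again beside 27.1% and 22.3% of all genes tested (median log2 fold change -0.65). *Farp1* had 35.2 and 21.2 TPM in iPSCs and 307 and 329 TPM in fibroblasts (-3.62 ± 0.29, adjusted p = 0.00074). *Farp2*, which acts with plexin-A1, had 5.65 and 3.20 TPM in iPSCs and 49.2 and 49.6 TPM in fibroblasts (-3.59 ± 0.31, adjusted p = 0.00087). *Dpysl2*, the CRMP2 protein that carries the *Sema3a* signal to microtubules, had 8.14 and 9.60 TPM in iPSCs and 100.1 and 104 TPM in fibroblasts (-3.65 ± 0.11, adjusted p = 0.00016). In each of these 3 genes both iPSC lines lay far below the fibroblasts. *Chn2*, a GTPase-activating protein for Rac, was lower too (-3.14 ± 0.28, adjusted p = 0.00096). In the other direction went *Arhgef15*, the ephexin-type exchange factor bound by *Ephb2*, with 4.94 and 11.3 TPM in iPSCs and 0.0829 and 0.0719 TPM in fibroblasts (6.11 ± 0.59, adjusted p = 0.0012). *Arhgap39*, a GTPase-activating protein whose fly counterpart binds Robo (2.04 ± 0.16, adjusted p = 0.00074), and *Pick1*, a PDZ protein that binds Eph receptors and ephrin-B (1.01 ± 0.08, adjusted p = 0.00081), were higher as well. *Cfl1*, the actin-severing cofilin, had 832 and 811 TPM in iPSCs and 849.8 and 906 TPM in fibroblasts and was not called (-0.22 ± 0.07, adjusted p = 0.038), and *Cdc42* was not called either (-0.62 ± 0.08, adjusted p = 0.0023).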

How the data were processed

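Bulk RNA-seq libraries (NEBNext Ultra II kit, Illumina NovaSeq) of 4 *M. minutoides* lines were used. The authors deposited, per library, counts of reads for genes, exons and introns, with TPM and RPKM. Per the submitters' processing notes, reads were placed on GRCm38, the genome of *M. musculus*, so a gene's level also depends on how well its sequence matches between the species. The aligner, counting tool and strand setting were not given in the sources used here. RPKM and the fraction columns that the authors deposited were not used, and the other deposited columns (coordinates, lengths, strand) were used to place genes.

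Total exon read counts were tested with edgeR 4.0.16 (R 4.3.3): filterByExpr, TMM (factors 1.09 and 1.12 for iPSC lines 6 and 10, 0.891 and 0.92 for fibroblast lines 1 and 2), quasi-likelihood test, prior count 2, and Benjamini-Hochberg adjustment over 17777 genes. Standard errors are the log2 fold change over the root of the F statistic. A gene was called at an adjusted p under 0.05 and a fold over 2. Where a group had no read, its sum was set to a floor of 3 counts. Where it had 1 to 3 counts, the scaled ratio of reads is given with its exact 95% binomial interval. Floor and interval cover counting error only, and the fitted fold of such genes depends on the prior count.

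Guidance genes with a mean of at least 5 TPM in a group (47 of 67) are given in full, the others by call and range. From the lists of co-receptors and effectors, up to 4 called genes in each direction and up to 2 not called were named. The guidance genes and lists were chosen with earlier results of these data known. Marker genes given singly were chosen after their values were seen. Simulated data with known folds served to check the edgeR script. Alternatives were reads of the whole gene, unique exon reads, RLE, upper quartile and total counts, DESeq2 1.42.0, other filters and fold thresholds, limma 3.58.1 on log2 TPM (computed here from the deposited TPM) with a pseudocount of 1 or 0.1, the test stated by the study, and each library left out in turn.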

Additional observations from a re-analysis of the deposited data

How the results depend on the processing

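The counts of guidance genes called stayed within 1.5 times of 26 higher and 19 lower in every alternative that kept all libraries (21 to 27 higher, 15 to 22 lower). Leaving a library out left its group without a replicate, so the spread of such fits came from the other group alone. Those fits show how an effect size moves, and their calls do not measure the spread in the group without a replicate. Of the genes called higher, 16 kept their call in every alternative that tested them and 10 lost it in at least 1 (*Epha8*, *Epha10*, *Robo3*, *Slit1*, *Unc5a*, *Unc5d*, *Sema3e*, *Sema4d*, *Efnb2* and *Plxnc1*). Of those called lower, 14 kept it and 5 lost it (*Ephb6*, *Sema4c*, *Sema6a*, *Efna5* and *Ntn5*). These tallies include the fits with a library left out. They also include the alternative with no fold threshold, which used the main fit, so that no called gene could lose its call there. Over all genes, 5965 were lower with no fold threshold, against 3962 with it. Scaling moved the split of calls. Total counts gave 5768 higher and 3028 lower (65.6% of calls higher, beside 54.9% with TMM, 4818 and 3962) and shifted the median gene by 0.28, and upper quartile gave 5378 and 3364 with a shift of 0.18. Both lost the lower calls of *Efna5*, *Sema4c* and *Sema6a*.

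Changes of sign occurred among genes not called. The log2 fold change of *Sema3f* was 0.073 with upper quartile, 0.18 with total counts, 0.019 in the study's stated test and -0.58 to 0.24 with a library left out. *Ntn1* gave 0.10 with total counts and -1.49 to 0.49 with a library left out, and *Plxna1* gave -0.056 on reads of the whole gene and -0.053 to 0.16. With a library left out, *Sema6b* ranged from -0.00092 to 0.21, *Sema6d* from -2.12 to 0.39 and *Plxna2* from -0.14 to 0.57. Family sums also depend on scale. With TPM rescaled by the TMM library sizes, the log2 ratio was 1.27 for EphA (1.56 as deposited), -0.91 for EphB (-0.63), 1.62 for ephrin-A (1.91), 0.029 for ephrin-B (0.31), 0.59 for class 4 semaphorins (0.87), 1.44 for classes 5 to 7 (1.72), -0.40 for plexins (-0.12) and 1.63 for Robo (1.91). This rescaling divides every TPM of a library by the TMM factor of that library, so every family moved down by a similar amount. Class 3 semaphorins went from -2.01 to -2.29, neuropilins from -2.75 to -3.03 and Slits from -1.97 to -2.25. Netrins went from -2.54 to -2.81 and Unc5 receptors from 2.96 to 2.67.

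No paired analysis was possible because the groups share no line numbers. With 2 libraries a group the spread rests on few values, and 20 of the 67 genes were under 5 TPM in both groups, where fewer reads make the fold less precise. An exon log2 fold change lay more than 1 from that on reads of the whole gene for 8 genes (*Epha10*, *Robo2*, *Slit1*, *Unc5d*, *Sema3d*, *Sema4d*, *Sema5b* and *Ntn4*). Of the 67 genes, 38 overlap another annotated gene, 2 of them one above 5 TPM (*Epha1* and *Unc5a*).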
